A study of Caenorhabditis elegans with 12 samples.

Results

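Autophagy wraps cytoplasm, organelles or lipid in a double membrane, the autophagosome, and delivers it to the lysosome, where hydrolases break it down. The vacuolar ATPase (V-ATPase) is the rotary proton pump that acidifies the lysosome: its cytosolic V1 sector splits ATP and its membrane V0 sector carries the protons. In Caenorhabditis elegans both are active in the intestine, which digests and stores fat, and polyunsaturated fatty acids of the family studied here have been linked in earlier work to autophagy and long life in this animal. Much of the control of autophagy acts on proteins rather than on transcript levels, and only transcript levels were measured here.

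The genes described are those whose symbol starts with atg-, lgg-, epg- or vha-, together with bec-1, unc-51, vps-34 and sqst-1, each taken at the probe set of its own with the highest mean over all arrays. The gene table holds 47 such genes. Of these, 45 had a probe set with their symbol alone, 27 of autophagy and 18 of the V-ATPase, out of 25478 genes measured in this way, and none of the 45 had more than 1 such probe set. The other 2, vha-2 and vha-3, appear only on 2 probe sets that carry both names, so no value is given for either. Membership follows from gene names, not from the level or change of a gene, but the set was chosen with earlier results of these data known.

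RNA came from whole worms of the wild-type strain N2, hatched together and kept at 20 °C on agar medium (NGM) with Escherichia coli OP50 as food until they were L4 larvae, the last larval stage. All 4 groups received ethanol vehicle at 1% v/v: the control received that alone, and the others also received 1 fatty acid at 1000 µM, abbreviated LNA for linoleic, GLA for gamma-linolenic and DGLA for dihomo-gamma-linolenic acid. GLA is LNA with an added double bond, and DGLA is GLA lengthened by a pair of carbons. Each group had 3 arrays, described as biological replicates, 12 in all, which sets how precise the values can be. Values are RMA log2 signals (robust multi-array average: background-corrected, normalised between arrays and summarised per probe set), so a difference of 1 is a 2-fold change, and levels of different genes are not compared.

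Array medians lay between 4.47 and 4.56. The first principal component, with 23.1% of the variance, placed LNA 2 (41.95) and LNA 3 (35.68) away from the remaining 10 arrays (-18.02 to 3.64), LNA 1 (-7.82) included, and the named genes in which these arrays were the lowest are given against control with and without them. Markers listed for intestine (7 measured of 8 listed), body wall muscle (6 of 6), neurons (7 of 7), hypodermis (6 of 6), and oocytes and eggshell (8 of 8) all had means above the median of all probe sets, as did 7 of 8 sperm markers, all but spe-38. So did the 4 measured adult markers (col-19, vit-2, vit-5 and vit-6), in worms labelled L4. None of these markers passed the test in any comparison of 2 groups.

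None of the 45 genes passed the test in any of the 6 comparisons between groups, in the mean of the 3 acids against control, or in the test for any difference among the 4 groups (limma's moderated tests on all 12 arrays, threshold 0.05 for p adjusted by the Benjamini-Hochberg method across the whole table). The background was low as well. With LNA against control 0.0667% of all genes were called, with GLA 0.247%, with DGLA 0.542%, for the mean of the acids 0.33% and for the difference among 4 groups 0.487%. At an unadjusted p under 0.05 the members numbered 3 with LNA, where the share of all genes was 9.34%, 4 with GLA (5.48%) and 0 with DGLA (5.68%). They numbered 1 for the mean of the acids (5.82%) and 4 for the test among 4 groups (8.34%), which were lgg-1, atg-9, unc-51 and atg-2. The smallest adjusted p of any member was 0.478 with LNA, 0.717 with GLA and 0.979 with DGLA.

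The intervals bound how large a change these arrays leave possible. They are for single genes, are not adjusted for the number of members, and use a spread shared by all groups. A 95% interval that stays within 1 on the log2 scale in both directions leaves out a 2-fold change. It did so for 43 of 45 members with LNA, all but atg-2 and atg-9, and for 45 of 45 with GLA and with DGLA. In atg-2 and atg-9 the SD was 0.75 and 0.66 with LNA, 0.063 and 0.044 with GLA, and 0.26 and 0.17 with DGLA. The shared spread is therefore not that of the GLA or DGLA arrays in these genes. Within the narrower bound of 0.5 lay 38 members with LNA, 39 with GLA and 40 with DGLA. The median log2 fold change over the members was 0.021 with LNA, -0.019 with GLA and 0.021 with DGLA, beside 0.024, -0.0024 and -0.0018 over all genes. After cyclic loess the median with LNA was -0.045.

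**Figure D1:**
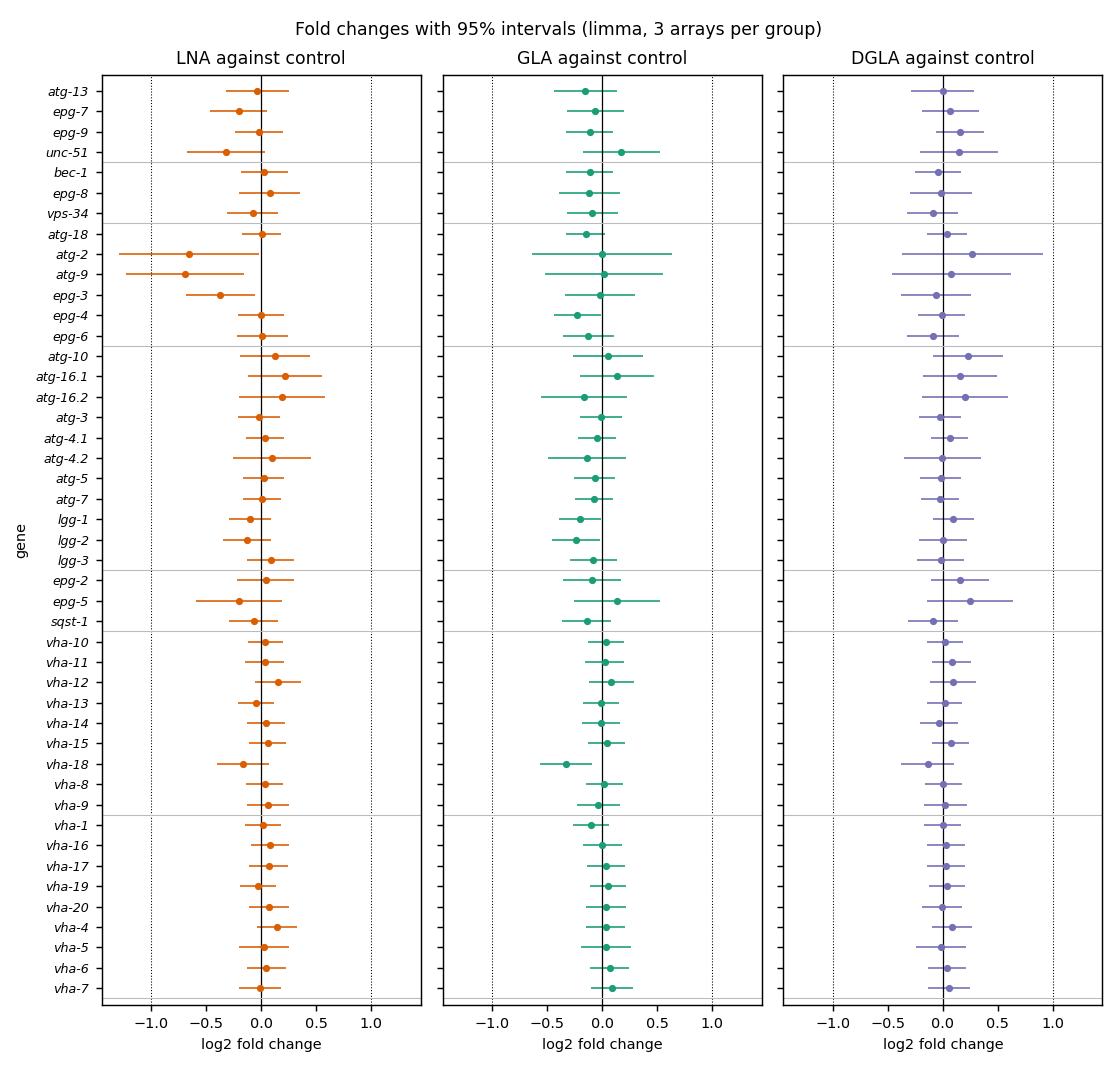
Log2 fold change of each member (points) with its 95% interval (bars) for LNA, GLA and DGLA against control, n = 3 arrays per group, ordered by role as in the text. The dotted lines mark 1 and -1; only the intervals of atg-2 and atg-9 with LNA cross one of them, and most of those of the V-ATPase genes (vha- symbols, lower rows) are narrower than those of the autophagy genes.

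The V-ATPase genes were the steadiest. Their values spanned a median of 0.20 over the 12 arrays, compared with 0.46 for the autophagy genes and 0.60 for all genes, and 17 of 18 spanned under 0.5. Probe sets of similar signal were not set beside the V-ATPase genes, so the part of signal level in this spread was not tested. Every interval of the 18 V-ATPase genes stayed within 0.5 of 0 with LNA and with DGLA, and 17 of 18 did with GLA. The medians of the 18 log2 fold changes were 0.040 with LNA, 0.032 with GLA and 0.024 with DGLA. With LNA this median was -0.011 after cyclic loess and 0.0072 without LNA 2 and LNA 3. With GLA it was 0.0051 without control 3.

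Of the V1 sector, vha-13 (Y49A3A.2), the catalytic A subunit, read 12.79, 12.79 and 12.79 in control, 12.78, 12.68 and 12.77 with LNA, 12.77, 12.77 and 12.80 with GLA, and 12.79, 12.79 and 12.83 with DGLA. All 12 values lay within 0.151 of each other, with LNA 2 the lowest. The B subunit vha-12 (F20B6.2) read 12.60, 12.47 and 12.61 in control, and 12.62, 12.74 and 12.77 with LNA. These LNA arrays lay above all control arrays, by a difference of 0.15 (SE 0.094, adjusted p = 0.609). LNA 2 and LNA 3 were the highest of all arrays, and LNA 1 lay barely above the highest control array. With GLA (12.71, 12.68 and 12.55) and DGLA (12.72, 12.73 and 12.51) the arrays of vha-12 overlapped the control. The remaining named V1 subunits moved by less. The E subunit vha-8 differed from control by 0.032, 0.020 and 0.0042 with LNA, GLA and DGLA, the C subunit vha-11 by 0.032, 0.025 and 0.080, and vha-15, one of 2 genes for the H subunit, by 0.059, 0.041 and 0.072.

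The other H subunit gene, vha-18 (F52E1.10), was the exception among the pump genes in its range, 0.64 over all arrays. It read 5.80, 6.00 and 6.11 in control, 5.80, 5.81 and 5.80 with LNA, 5.75, 5.71 and 5.46 with GLA, and 5.94, 5.72 and 5.82 with DGLA. All 3 GLA arrays lay below all 3 control arrays, while the LNA and DGLA arrays overlapped the control. The difference with GLA was -0.33 (SE 0.11, 95% interval -0.57 to -0.089, adjusted p = 0.717), the smallest p of any member with GLA but not past the threshold. Without GLA 3, the lowest array of vha-18, 0 members had an unadjusted p under 0.05 with GLA in limma's moderated test. The relative of vha-18, vha-15, read 11.67, 11.62 and 11.61 in control and 11.68, 11.66 and 11.68 with GLA.

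In the V0 sector the proteolipid c subunit vha-1 (R10E11.8) read 12.20, 12.23 and 12.26 in control and 12.12, 12.09 and 12.17 with GLA, so that its GLA arrays lay below the control, at a difference of -0.10 (SE 0.076, adjusted p = 0.999). Its values with LNA (12.22, 12.27 and 12.24) and DGLA (12.24, 12.16 and 12.28) overlapped the control. The c″ subunit vha-4 (T01H3.1) read 11.03, 10.95 and 10.88 in control and 11.04, 11.13 and 11.13 with LNA. The groups did not overlap, and the difference was 0.15 (SE 0.083, adjusted p = 0.582). In vha-4 too LNA 2 and LNA 3 were the highest of all arrays, with LNA 1 barely above the highest control array. Only 3 V-ATPase genes had LNA arrays clear of the control, vha-4 and vha-12 above and vha-13 below. Over all genes 8.24% had LNA arrays above the control and 3.94% below.

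The large membrane a subunit is made by several genes used in different tissues. The intestinal form vha-6 (VW02B12L.1) read 10.97, 10.87 and 10.88 in control, 10.996, 10.95 and 10.91 with LNA, 11.03, 10.98 and 10.92 with GLA, and 11.02, 10.94 and 10.87 with DGLA, and all groups overlapped. Its relatives varied more, with ranges over the 12 arrays of 0.30 for vha-5 and 0.29 for vha-7 against 0.16 for vha-6, and their group differences were small, with vha-5 differing from control by 0.022, 0.038 and -0.016 and vha-7 by -0.0089, 0.090 and 0.055 with LNA, GLA and DGLA. The fourth a subunit gene, unc-32, which the naming rule leaves out, differed by -0.066, -0.054 and 0.029. The d subunit vha-16 differed by 0.081, 0.0034 and 0.027, and the accessory subunit vha-19 by -0.031, 0.055 and 0.037.

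Autophagy starts when the kinase unc-51 (Y60A3A.1; ULK1 in mammals) acts with atg-13, the scaffold epg-7 and epg-9. The gene unc-51 read 8.92, 8.79 and 8.90 in control, 8.82, 8.14 and 8.70 with LNA, 8.93, 9.27 and 8.94 with GLA, and 9.12, 8.96 and 8.96 with DGLA. The GLA arrays and the DGLA arrays lay above all control arrays, by 0.18 (adjusted p = 0.999) and 0.14 (adjusted p = 0.9997), with an SE of 0.16 each. It was the only member whose GLA arrays all lay above the control, as was so for 5.70% of all genes. With LNA it differed by -0.32 (adjusted p = 0.551), and without LNA 2 and LNA 3 by -0.054. The scaffold epg-7 (T08A9.1) differed by -0.20 with LNA (SE 0.12, adjusted p = 0.593), and epg-9 (Y69A2AR.7), the ATG101 counterpart, by 0.15 with DGLA (SE 0.099, adjusted p = 0.979), the smallest p of any member with DGLA.

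The lipid kinase vps-34 and its partner bec-1 (Beclin 1 in mammals) then mark the forming membrane. In bec-1 (T19E7.3) the control arrays read 8.046, 8.107 and 8.001, and those of LNA 7.897, 8.191 and 8.155. Its GLA arrays read 7.999, 7.836 and 7.977 and its DGLA arrays 8.015, 8.001 and 7.999. Only the GLA arrays lay clear of the control, the highest of them barely below the lowest control array, at a difference of -0.11 (SE 0.096, adjusted p = 0.999). The kinase vps-34 differed from control by -0.075, -0.087 and -0.093 with LNA, GLA and DGLA (SE 0.11 each), and all groups overlapped.

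The steps that feed membrane to the growing autophagosome held the widest differences of all members, and these lay in LNA. The lipid transfer protein gene atg-2 (M03A8.2) read 8.64, 8.45 and 8.15 in control, 8.62, 7.29 and 7.36 with LNA, 8.49, 8.37 and 8.39 with GLA, and 8.39, 8.90 and 8.76 with DGLA. The gene atg-9 (T22H9.2), for the membrane scramblase that supplies vesicles, read 7.88, 7.68 and 7.62 in control, 7.72, 6.41 and 6.98 with LNA, 7.76, 7.78 and 7.70 with GLA, and 7.61, 7.93 and 7.88 with DGLA. The VMP1 counterpart epg-3 (Y37D8A.22) read 8.61, 8.63 and 8.69 in control, 8.69, 8.11 and 8.02 with LNA, 8.63, 8.62 and 8.62 with GLA, and 8.49, 8.64 and 8.62 with DGLA. In each of the 3 genes LNA 2 and LNA 3 lay below every other array, while LNA 1 lay among the control, GLA and DGLA arrays.

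Against control the LNA differences were -0.69 for atg-9 (SE 0.25, adjusted p = 0.478), -0.66 for atg-2 (SE 0.29, adjusted p = 0.514) and -0.37 for epg-3 (SE 0.14, adjusted p = 0.489), none past the threshold. Without LNA 2 and LNA 3, which leaves LNA with 1 array assumed to vary like the other groups, they were -0.0048, 0.21 and 0.043. Without LNA 1 all 3 were called lower against control, by -1.04, -1.09 and -0.58 (adjusted p = 0.00644, 0.00523 and 0.00458), in a fit where the calls over all genes came to 2.95%, 144 higher and 607 lower. In these 3 genes the LNA differences lay on LNA 2 and LNA 3, and not on all LNA arrays. As those arrays were the lowest, the refits had to shift this way and are not separate evidence.

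In 5 members LNA 2 and LNA 3 were the 2 lowest of the 12 arrays: atg-2, atg-9, epg-3, unc-51 and epg-5. Over all genes this was so for 6.01%. They were the 2 highest in 7 members, namely bec-1, lgg-3, vha-4, vha-8, vha-9, vha-12 and vha-20, and in 8.23% of all genes. The 5 low members are among the 6 longest of the 45, with genomic spans of 7572 to 11022 bp. The median span was 8500 bp for them and 2372 bp for the other 40. The exception is vha-7, the third longest (10191 bp), in which LNA 2 and LNA 3 averaged -0.084 relative to the other arrays, against -0.54 to -1.19 in the 5. Over all genes, those lowest on both arrays had a median span of 6687 bp and those highest on both 1649 bp, beside 1537 bp for all. In 4 of the 6 body wall muscle markers (unc-15, unc-22, unc-54 and myo-3) LNA 2 and LNA 3 were also the lowest arrays. The markers lev-11 and hlh-1 did not show this, and none of the 6 was called. Outside muscle, these arrays were also the lowest in the neuron marker unc-13, the sperm marker fer-1 and the oocyte and eggshell marker cbd-1. No intestine, hypodermis or adult marker showed this. The summed signal of the 6 muscle markers spanned 13.26 to 14.19 (log2) with LNA. It spanned 14.06 to 14.17 in control, 14.13 to 14.14 with GLA and 14.03 to 14.20 with DGLA. In extracts of whole worms fewer cells of a type and less RNA per cell cannot be told apart. The part of gene length or of muscle RNA in these values was not tested.

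**Figure D2:**
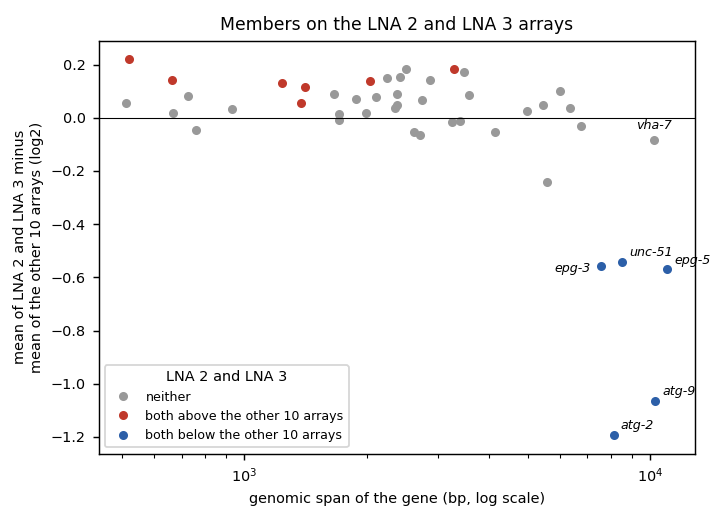
Mean log2 signal of LNA 2 and LNA 3 minus that of the other 10 arrays (vertical axis) against genomic span in bp (log scale) for the 45 members, coloured by whether both arrays lay above, below or among the other 10. The 5 members lowest on both arrays lie at the right, with vha-7 near 0 beside them.

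**Figure D3:**
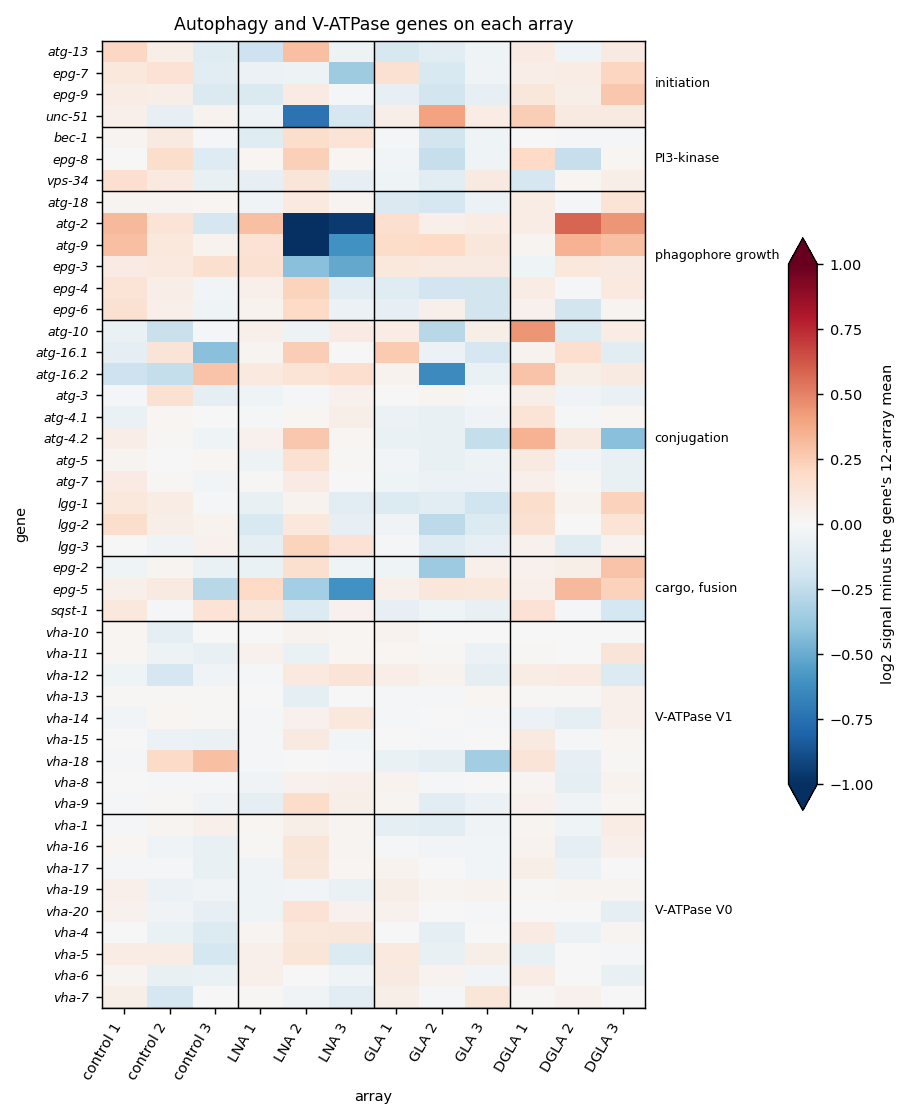
Log2 signal of each member (rows, by role) on each of the 12 arrays (columns) minus the gene's mean over all arrays. The darkest blue cells of atg-2, atg-9, epg-3 and epg-5 sit in LNA 2 and LNA 3, unc-51 is lowest in LNA 2, and the V-ATPase rows are pale except for vha-18, which is blue in GLA 3 and red in control 3.

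Ubiquitin-like conjugation systems decorate the autophagosome membrane. The gene lgg-1 (C32D5.9), the GABARAP counterpart, read 11.04, 11.01 and 10.92 in control, 10.87, 10.97 and 10.82 with LNA, 10.80, 10.82 and 10.74 with GLA, and 11.11, 10.97 and 11.16 with DGLA. Its relative lgg-2 (ZK593.6), the LC3 counterpart, read 10.66, 10.54 and 10.52 in control, 10.33, 10.59 and 10.40 with LNA, 10.45, 10.22 and 10.35 with GLA, and 10.63, 10.48 and 10.62 with DGLA. In both genes the GLA arrays lay below all control and all DGLA arrays, and the LNA arrays overlapped those of GLA. With GLA the difference from control was -0.20 for lgg-1 (SE 0.087, 95% interval -0.39 to -0.011) and -0.23 for lgg-2 (SE 0.10, 95% interval -0.45 to -0.016), with adjusted p of 0.907 and 0.903. With DGLA it was 0.096 and 0.0046.

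The enzymes and partners of conjugation were lower than control with GLA, all but atg-10 and atg-16.1. With LNA all but atg-3 were higher, and with DGLA the directions were mixed. None of these differences was called. The E1-like enzyme atg-7 (M7.5) read 8.48, 8.41 and 8.37 in control and 8.35, 8.34 and 8.34 with GLA, a difference of -0.075 (SE 0.078, adjusted p = 0.999). With LNA (8.41, 8.48 and 8.39) and DGLA (8.45, 8.41 and 8.32) it overlapped the control. The ubiquitin-like lgg-3, the ATG12 counterpart, differed by 0.087, -0.082 and -0.020 with LNA, GLA and DGLA. For atg-16.2, which helps place the conjugate on the membrane, the differences were 0.19, -0.17 and 0.20 (SE 0.18 each), and for the E2-like atg-10, the only member below the median of all probe sets, 0.13, 0.052 and 0.23 (SE 0.15 each). All groups of these 3 genes overlapped the control.

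The genes epg-4 and atg-18, like lgg-1 and lgg-2, had their lowest group mean with GLA. The order of the other groups differed between genes. The EI24 counterpart epg-4 (F37C12.2) read 8.37, 8.30 and 8.21 in control, 8.28, 8.46 and 8.13 with LNA, 8.11, 8.04 and 8.05 with GLA, and 8.30, 8.21 and 8.33 with DGLA. The lipid-binding WIPI family gene atg-18 (F41E6.13) read 10.66, 10.66 and 10.65 in control, 10.60, 10.73 and 10.66 with LNA, 10.49, 10.47 and 10.57 with GLA, and 10.71, 10.62 and 10.77 with DGLA. In these 2 members all 3 GLA arrays lay below the other 9, as was so for 0.730% of all genes. The differences from control were -0.23 (SE 0.097, adjusted p = 0.907) and -0.15 (SE 0.081, adjusted p = 0.966).

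The cargo receptor sqst-1 (T12G3.1; p62 in mammals), which is itself degraded by autophagy as a protein, read 9.53, 9.41 and 9.56 in control, 9.53, 9.29 and 9.47 with LNA, 9.34, 9.38 and 9.35 with GLA, and 9.57, 9.40 and 9.25 with DGLA. Its GLA arrays lay below the control, at a difference of -0.14 (SE 0.10, adjusted p = 0.998), and the other groups overlapped it. The adaptor epg-2, known from the clearance of germline granules in worm embryos, read 5.11, 5.18 and 5.09 in control and 5.19, 5.21 and 5.43 with DGLA. These groups did not overlap, at a difference of 0.15 (SE 0.12, adjusted p = 0.993). The tether epg-5, which joins autophagosomes to lysosomes, differed from control by -0.20, 0.14 and 0.25 with LNA, GLA and DGLA (SE 0.18 each). LNA 2 and LNA 3 were its lowest arrays, and without them the LNA difference turned to 0.25 (SE 0.17, adjusted p = 0.806).

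Counted together, 9 of the 27 autophagy genes (33.3%) had all 3 GLA arrays below all 3 control arrays, while 6.35% of all genes did, or 8.66% of those above the median of all probe sets. These were lgg-1, lgg-2, epg-4, atg-18, sqst-1, bec-1, atg-7, atg-4.2 and atg-5. Of the 18 V-ATPase genes 2 did, vha-1 and vha-18. The median log2 fold change of the 27 with GLA was -0.087, and 21 of 27 were below 0, while the V-ATPase median was 0.032 with 5 of 18 below 0. The largest of these differences among the 27, in lgg-2, amounted to 1.18-fold, and no gene among them was called, so this is a count of small differences. Their arrays are shared and the genes are not independent. The median was -0.050 without GLA 2 and -0.12 without GLA 1, and the count was 8 of 27 after cyclic loess, when 6.43% of all genes did. With LNA the median of the 27 was -0.0030 and with DGLA 0.0046. After cyclic loess the medians were -0.071 with LNA, -0.075 with GLA and 0.0092 with DGLA, so that LNA and GLA were close. Of the 27, 0 lay below the control on all arrays of either acid. With DGLA only unc-51 and epg-2 had arrays clear of the control, both above, where 5.57% of all genes lay above and 5.19% below.

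**Figure D4:**
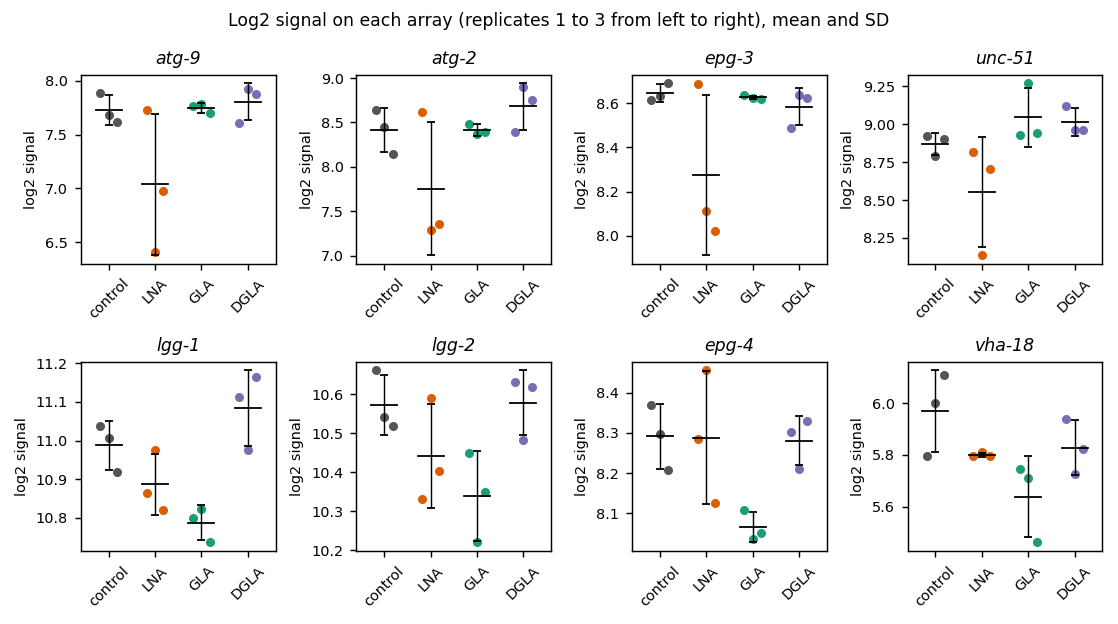
Log2 signal of 8 members on each array (points), with the group mean (line) and SD (bar), n = 3 per group; the vertical axis differs between panels. In the upper row the spread lies in the LNA group, whose first array is near the control; in the lower row the GLA mean is the lowest of the 4.

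Comparisons between the acids, at the same dose and stage, asked whether the added double bond or the added length went with a difference. No member was called in any of the 3 comparisons, where 0.0628% (GLA against LNA), 0.0667% (DGLA against GLA) and 0.33% (DGLA against LNA) of all genes were. At an unadjusted p under 0.05 there were 5, 5 and 6 members, and 11%, 5.04% and 11.2% of all genes. The lowest adjusted p of a member was 0.393, 0.720 and 0.308. A p above the threshold does not show that the acids act alike, and the intervals give the room that remains. For the V-ATPase genes every interval lay within 0.5 in all 3 comparisons. For the autophagy genes 25 of 27 lay within 1 in both comparisons with LNA, and 27 of 27 in DGLA against GLA.

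Between DGLA and GLA, which differ in chain length, the smallest p was that of lgg-1, higher with DGLA by 0.30 (SE 0.087, 95% interval 0.11 to 0.49, adjusted p = 0.720). The next smallest were those of epg-9 with 0.27 (95% interval 0.052 to 0.49, adjusted p = 0.878) and lgg-2 with 0.24 (0.020 to 0.46, adjusted p = 0.941). Of the 27 autophagy genes 9 had all DGLA arrays above all GLA arrays and none the reverse, where 5.75% of all genes lay above and 5.08% below, and 7.72% above among genes over the median of all probe sets. None of the 18 V-ATPase genes was clear in either direction. This comparison uses the same GLA arrays as the one against control, so the 2 counts are not separate evidence.

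Between GLA and LNA, which differ by a double bond, unc-51 was higher with GLA by 0.50 (95% interval 0.14 to 0.85, adjusted p = 0.393) and atg-9 by 0.71 (0.17 to 1.25, adjusted p = 0.393), and in both genes LNA 2 and LNA 3 were the lowest arrays. In all, 11 of 45 members had GLA arrays below the LNA arrays and 2 (unc-51 and vha-19) above, where 10.4% and 4.88% of all genes did. In DGLA against LNA the differences were 0.93 for atg-2 (0.29 to 1.56, adjusted p = 0.308) and 0.77 for atg-9 (0.23 to 1.31, adjusted p = 0.313). Here 5 members had DGLA arrays above the LNA arrays (epg-7, unc-51, lgg-1, vha-13 and vha-19) and 0 below, where 4.43% and 8.23% of all genes did. Without LNA 1, 3 members were called in GLA against LNA (atg-2, atg-9 and epg-3), when 3.23% of all genes were, and 4 in DGLA against LNA (the same 3 and epg-5), when 4.16% were. Without LNA 2 and LNA 3 none was called in either. The GLA minus LNA differences were then 0.23 for unc-51 and 0.022 for atg-9, and those of DGLA minus LNA 0.062 for atg-2 and 0.081 for atg-9.

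Other genes of the pathway were taken from pathway lists. Of 18 measured regulators of autophagy and the lysosome none was called in any comparison of 2 groups. The transcription factor hlh-30 (TFEB in mammals), which drives lysosomal and autophagy genes, differed from control by -0.31, 0.12 and 0.17 with LNA, GLA and DGLA (SE 0.16 each). The TOR kinase let-363, which restrains autophagy, differed by -0.59, 0.11 and 0.078 (SE 0.24 each). In both genes LNA 2 and LNA 3 were the lowest arrays, and without them the LNA difference turned to 0.076 for hlh-30 and 0.15 for let-363. None was called among 20 genes of endosome to lysosome traffic, where rab-7, the late endosome GTPase, differed by -0.023, -0.0031 and 0.12 (SE 0.076 each) and vps-15, the partner of vps-34, by -0.45, 0.083 and 0.086 (SE 0.20 each). For vps-15 the LNA value likewise turned, to 0.13, without LNA 2 and LNA 3, its lowest arrays. None was called among 6 genes of selective autophagy. At an unadjusted p under 0.05 against control there were 4, 0 and 0 regulators with LNA, GLA and DGLA, 1, 0 and 1 traffic genes, and 0 genes of selective autophagy with any acid. For the lysosomal hydrolases and membrane proteins described next the counts were 9, 4 and 3 of 35. Over all genes the shares were 9.34%, 5.48% and 5.68%. The medians with LNA, GLA and DGLA were 0.035, 0.017 and 0.038 for the regulators, 0.027, -0.051 and 0.0087 for traffic and 0.038, 0.015 and 0.080 for selective autophagy.

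Of 35 lysosomal hydrolases and membrane proteins 1 was called, the cathepsin B-like protease gene cpr-3, and it was lower with DGLA. Over all genes 0.542% were called in DGLA against control and 0.33% in DGLA against LNA. The gene cpr-3 was called in both of these comparisons. It read 7.37, 7.14 and 6.73 in control, 6.79, 6.95 and 6.89 with LNA, 6.45, 6.29 and 6.21 with GLA, and 6.18, 5.80 and 5.62 with DGLA. The DGLA arrays lay below all others. The GLA arrays also lay below all control and LNA arrays, but no comparison with GLA was called, DGLA against GLA included. With DGLA cpr-3 fell by 1.21 on the log2 scale against control (SE 0.17, adjusted p = 0.00578) and by 1.01 against LNA (SE 0.17, adjusted p = 0.0325). The call against control ended when only the 6 arrays compared were fitted (adjusted p = 0.120), and the call against LNA ended in 6 of 13 alternatives. These were the fit on the 6 arrays alone (adjusted p = 0.149) and the fits without LNA 2 (0.130), LNA 3 (0.121), both of these (0.330), DGLA 2 (0.146) or DGLA 3 (0.138). The lysosomal membrane protein lmp-1 differed from control by 0.27, 0.15 and 0.12 (SE 0.10 each), and the cathepsin L gene cpl-1 by -0.13, -0.12 and -0.0097 (SE 0.075 each). For lmp-1 LNA 2 and LNA 3 were the highest arrays, and without them the LNA difference was 0.17. The medians of the list were 0.075, -0.040 and 0.010 with LNA, GLA and DGLA.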

How the data were processed

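The authors deposited 1 table of RMA values for 29317 probe sets on 12 arrays. Per the submitters' processing notes, RMA, Transcriptome Analysis Console and Expression Console (Affymetrix) were used, with versions and genome build not given in the sources used. The authors' values span 0.65 to 13.99 and were read as log2 signal. Raw intensities were not used.

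Probe sets were named from the platform annotation: 25546 carry 1 symbol, 646 several and 3125 none. Of the first, 25495 were found by gene identifier in RefSeq's table for WBcel235, which changed 0 symbols and also gave genomic spans.

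Group means were fitted to all probe sets and 12 arrays with limma 3.58.1 in R 4.3.3 (lmFit, eBayes, no block), with 6 comparisons, the mean of the acids against control and an F test, each adjusted by Benjamini-Hochberg over all probe sets and called under 0.05. The fit was tested on simulated data. Intervals are 95%, with 11.6 total degrees of freedom. "Not overlapping" means that all arrays of a group lie beyond all of the other.

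The members, gene lists and tests were chosen with earlier results of these data known. Named genes are the 6 members with the smallest p against control for each acid and a fixed list. Alternatives are a replicate block, cyclic loess, a filter on dim probe sets, a trended robust prior, fits on the groups compared, probe set averaging, and leaving out arrays.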

Additional observations from a re-analysis of the deposited data

How the results depend on the processing

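The count of called members was 0 in all 8 tests under 6 alternatives: a replicate block, cyclic loess, no dim probe sets, a trended robust prior, averaged probe sets, and no LNA 2 and LNA 3. It was also 0 in all 6 comparisons when only the groups compared were fitted. Leaving out 1 array gave 0 to 3 for LNA against control, 0 to 3 for GLA against LNA, 0 to 4 for DGLA against LNA and 0 to 3 for the F test, with the highest count each time without LNA 1; the other 4 tests gave 0. Of 2490 values of 32 named members under these alternatives, 0 turned direction with a call and 10 gained a call (all without LNA 1). Of those without a call, 48 moved by more than their SE in the main fit. Changes of direction without a call were not counted. The LNA differences of atg-2, epg-3 and epg-5 from control changed direction in this way without LNA 2 and LNA 3.

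The median log2 fold change with LNA after cyclic loess was -0.045 for all members, -0.071 for the autophagy genes and -0.011 for the V-ATPase genes, and for the last 0.0072 without LNA 2 and LNA 3; the cause was not tested. For the V-ATPase genes with GLA, leaving out 1 array gave 0.0051 to 0.053, the lowest without control 3.

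Same-numbered arrays showed no consistent pairing, though 3 arrays per group cannot exclude it. Deviations from group means correlated at -0.13 to 0.22, over 0.1 in 3 of 18 pairs, and 5 of 12 arrays correlated best with their own number. With the replicate block the lowest adjusted p of a member was 0.344. The number of arrays limits all of this: small differences in single genes could not be called.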
